A study of Homo sapiens with 12 samples.

Results

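Homologous recombination and the Fanconi anemia pathway were followed through 36 genes in IMR5, an established human neuroblastoma cell line with amplification of the oncogene MYCN. The genes were taken by symbol, and all 36 were found among the 20029 genes of the drug table and among the 19610 genes of the knockdown table. There were 4 groups of 3 libraries. Cells received 100 nM of the drug selinexor, which blocks the nuclear export protein XPO1, for 24 h, against DMSO. A single XPO1 siRNA was delivered to other cells by nucleofection, against a negative control siRNA, and RNA was taken after 72 h. Every group thus shares the IMR5 background, and nothing in the labels says that replicates were separate cultures, so p-values measure the spread between these libraries, which may be technical.

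Homologous recombination repairs a broken chromosome by copying an intact one, usually the sister chromatid, and so works mainly in cells that are replicating or have replicated their DNA. The broken end is trimmed to single-stranded DNA, BRCA1 and BRCA2 with their partners prepare it for strand exchange, and strand exchange and motor proteins find the matching strand. The Fanconi proteins handle DNA crosslinks: a multi-subunit ubiquitin ligase, the core complex, marks the FANCD2 and FANCI pair, which calls in nucleases that cut the crosslink free before recombination completes the repair. Many of these genes are transcribed in S phase under the E2F factors.

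Libraries held an estimated 26.8 to 33.8 M reads with selinexor and 39.5 to 40.9 M with DMSO, and 33.5 to 55.8 M with XPO1 siRNA and 40.6 to 54.0 M with control siRNA. XPO1 itself, the target of both perturbations, had normalized read counts of 4260, 4377 and 4397 with XPO1 siRNA, against 18568, 18950 and 18908 with control siRNA, a 4.33-fold lower level. With selinexor XPO1 stood at 15544, 22513 and 21165, against 17886, 18899 and 18356 with DMSO, and the groups overlapped with no call (limma adjusted p = 0.623). Without selinexor replicate 1, XPO1 passed the threshold as higher with selinexor (log2 fold change 0.25, limma adjusted p = 0.00112). CDKN1A, the gene of the cell cycle brake p21, was 43.1-fold higher with selinexor than with DMSO and 22.6-fold higher with XPO1 siRNA than with control siRNA. Summed neuroblastoma markers ranged from 82869 to 97085 with selinexor, 68925 to 71475 with DMSO, 96898 to 103225 with XPO1 siRNA and 79248 to 81327 with control siRNA. TH, which encodes tyrosine hydroxylase and is a defining marker of the lineage, had a value in the knockdown table only, at a mean under 10. Of 18 markers of immune, endothelial, glial, stromal and epithelial cells, 8 had values, and their sums were 837 to 1842 with selinexor, 811 to 914 with DMSO, 1096 to 1120 with XPO1 siRNA and 1137 to 1388 with control siRNA. Most of each sum was the stromal marker COL1A1. It ranged from 611 to 1615 with selinexor, 640 to 735 with DMSO, 825 to 866 with XPO1 siRNA and 962 to 1164 with control siRNA. Selinexor replicate 1 stood apart, with a Pearson correlation across genes of 0.974 and 0.977 to the other selinexor libraries, where those correlated at 0.991. It was the lowest selinexor library for 28 of the 36 genes, where DMSO replicate 1 was the lowest of its group for 25, control siRNA replicate 1 for 20 and XPO1 siRNA replicate 3 for 14.

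Selinexor lowered most of the pathway. Of the 36 genes, 31 fell, 0 rose and 5 did not pass the threshold (RAD50, RAD51B, RAD52, FAN1 and MUS81), by limma on log2(value + 1) with a Benjamini-Hochberg adjusted p under 0.05 over all 18128 genes tested. At an unadjusted p under 0.05, 1 gene of the 36 was higher, RAD52. Of all genes tested, 49.2% passed that threshold, 26.3% as lower and 22.9% as higher. The median log2 fold change was -1.24 over the 36 genes, beside -0.0076 over all genes, and 21 of the 36 fell at least 2-fold, which 5.53% of all genes did. The fall reached 4-fold in 8 genes, EXO1, BRCA1, BLM, BRCA2, RAD51AP1, BRIP1, RAD54L and XRCC2. For 33 of the 36 the selinexor and DMSO libraries did not overlap, beside 61.7% of all genes. Without selinexor replicate 1, 32 genes fell and RAD52 rose.

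XPO1 knockdown gave smaller changes. There, 25 of the 36 fell, 3 rose (RAD51C, RAD52 and FAN1) and 8 did not pass the threshold, among 17616 genes of which 54.5% passed it, 28.6% as lower and 25.9% as higher. The median log2 fold change was -0.26, beside 0.0024 over all genes, and no gene of the 36 fell 2-fold, where 1.53% of all genes did. For 29 of the 36 the siRNA groups did not overlap, beside 60.4% of all genes. The count of genes that rose depended on the scaling: with libraries rescaled to equal totals, 19 of the 36 fell and 6 rose (RAD50, RAD51C, RAD52, FAN1, MUS81 and SLX4). Over all genes called, 47.5% were higher as the authors scaled the values and 62.4% with equal totals. In bulk RNA, fewer cells that express a gene and less RNA per cell cannot be told apart.

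**Figure D1:**
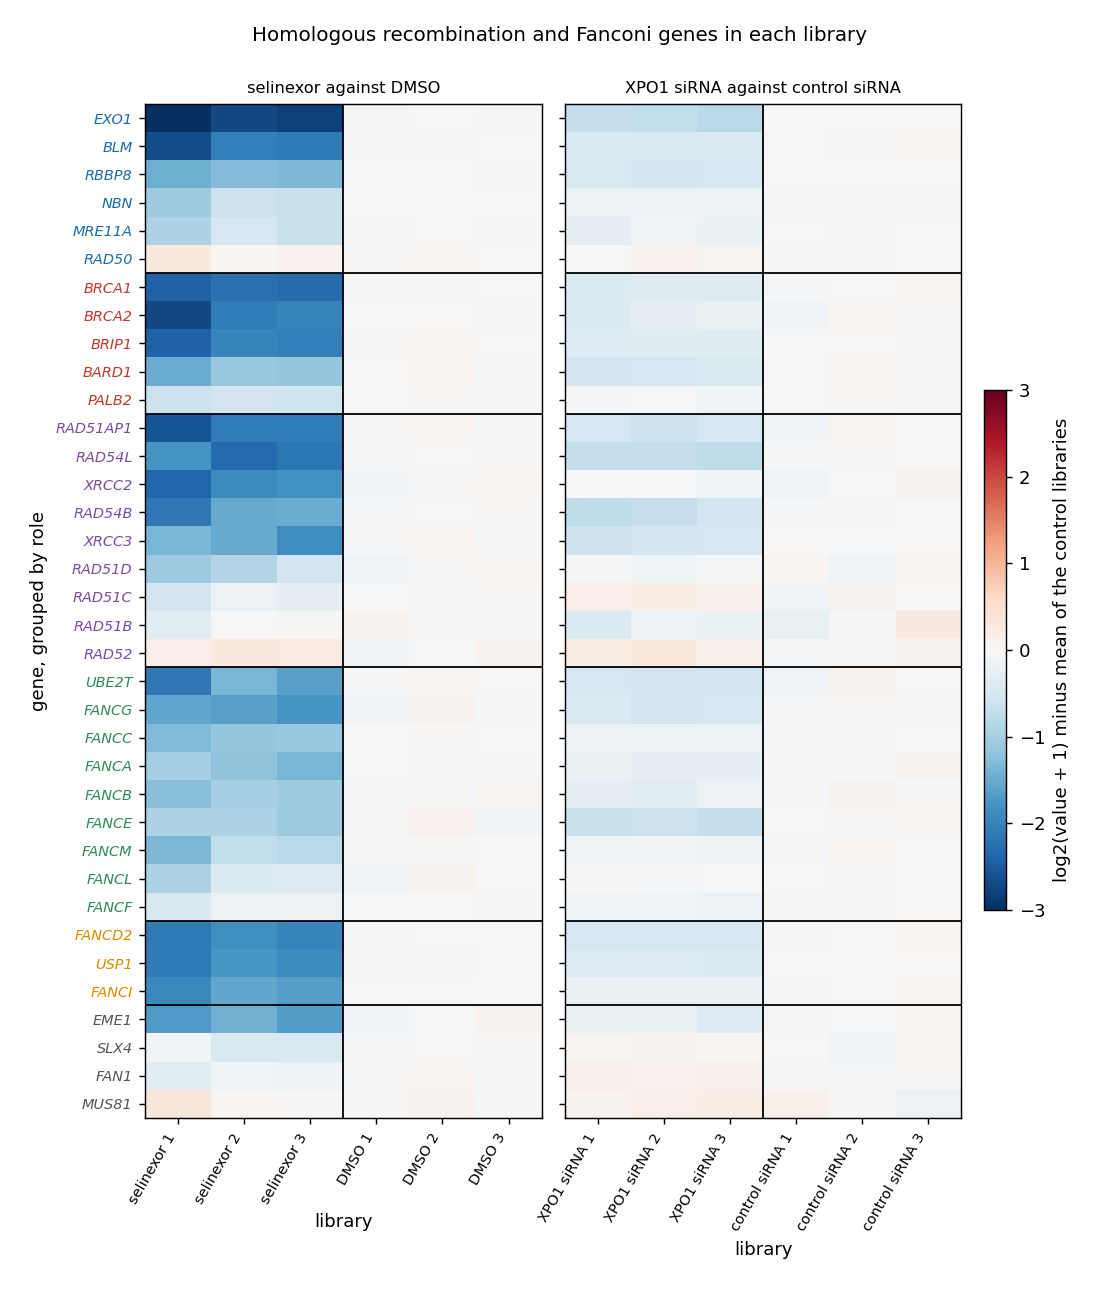
Heat map of the 36 genes (rows, grouped by role and coloured by it) in each of the 12 libraries (columns), as log2(value + 1) minus the mean of the DMSO or control siRNA libraries. The median over the 36 genes was -1.35, -1.18 and -1.26 for selinexor replicates 1 to 3 and -0.28, -0.24 and -0.20 for those of XPO1 siRNA.

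Since many of the 36 genes moved together, the promoter windows that RefSeq gives for them (GRCh38.p14, 250 bases before to 50 after the gene start) were searched on both strands. The words were 4 forms of the E2F element (TTTGGCGC, TTTGCCGC, TTTCGCGC and TTTCCCGC) and the cell cycle homology region, or CHR (TTTGAA). Windows were matched for 33 genes, all but NBN, RAD54B and FANCI, with MRE11A under its current symbol MRE11. Of the 33, 3 held an E2F word (9.09%: XRCC2, FANCA and FANCD2), beside 4.63% of the windows of 15399 tested genes and 3.31% of all 35116 windows. Likewise 3 held the CHR word (9.09%: BRIP1, UBE2T and USP1), beside 10.5% of the windows of tested genes and 15.2% of all windows. The 7-letter cores, which are the 8-letter E2F words without their first T and were added after the data had been seen, stood in 18 of 33 windows (54.5%), beside 18.6% of the windows of tested genes and 12.97% of all windows. In the selinexor comparison the median log2 fold change was -1.63 over the 18 genes with a core and -0.61 over the 15 without one, and in the knockdown comparison -0.39 and -0.13. For the 8-letter E2F words it was -1.99 over 3 genes with and -1.16 over 30 without (selinexor), and -0.25 and -0.26 (knockdown). For the CHR word it was -1.91 over 3 genes with and -1.14 over 30 without (selinexor), and -0.40 and -0.25 (knockdown). A match is a description of the letters and not of binding. EXO1 and BRCA2, among the genes with the largest falls, held none of the words. The windows of BLM (chr15:90717096-90717395, plus strand), with 3 cores, FANCD2 (chr3:10026187-10026486, plus strand) and XRCC2 (chr7:152676092-152676391, minus strand), each with the longer E2F word, and USP1 (chr1:62436799-62437098, plus strand), with 1 core and 2 CHR words, are printed to show where the words lie, and that of RAD50 (chr5:132556727-132557026, plus strand), which passed the threshold in neither comparison, to show a window without them. Each runs 5′ to 3′ on the strand of its gene, with core and CHR words in capitals.
BLM: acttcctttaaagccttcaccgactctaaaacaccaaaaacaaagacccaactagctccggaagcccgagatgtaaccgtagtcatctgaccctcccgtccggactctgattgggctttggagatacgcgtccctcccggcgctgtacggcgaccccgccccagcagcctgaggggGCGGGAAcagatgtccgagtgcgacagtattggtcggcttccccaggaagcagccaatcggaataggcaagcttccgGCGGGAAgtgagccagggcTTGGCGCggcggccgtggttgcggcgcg
FANCD2: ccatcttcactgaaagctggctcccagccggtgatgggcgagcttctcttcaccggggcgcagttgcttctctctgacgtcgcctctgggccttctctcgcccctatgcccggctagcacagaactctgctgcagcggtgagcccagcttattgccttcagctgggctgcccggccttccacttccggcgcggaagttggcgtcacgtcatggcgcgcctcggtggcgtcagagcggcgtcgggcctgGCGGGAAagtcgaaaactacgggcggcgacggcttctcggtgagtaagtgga
XRCC2: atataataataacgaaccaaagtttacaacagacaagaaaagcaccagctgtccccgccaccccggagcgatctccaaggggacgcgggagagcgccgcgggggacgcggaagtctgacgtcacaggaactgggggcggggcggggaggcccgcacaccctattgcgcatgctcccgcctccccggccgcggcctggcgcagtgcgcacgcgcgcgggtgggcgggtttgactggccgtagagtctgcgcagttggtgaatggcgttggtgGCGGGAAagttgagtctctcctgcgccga
USP1: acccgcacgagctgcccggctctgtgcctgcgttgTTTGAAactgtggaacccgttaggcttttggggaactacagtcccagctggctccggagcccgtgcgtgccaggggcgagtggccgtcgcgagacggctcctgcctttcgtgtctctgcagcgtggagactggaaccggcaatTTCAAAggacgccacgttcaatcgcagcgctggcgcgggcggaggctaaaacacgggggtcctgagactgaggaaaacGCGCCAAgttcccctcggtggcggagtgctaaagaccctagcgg
RAD50: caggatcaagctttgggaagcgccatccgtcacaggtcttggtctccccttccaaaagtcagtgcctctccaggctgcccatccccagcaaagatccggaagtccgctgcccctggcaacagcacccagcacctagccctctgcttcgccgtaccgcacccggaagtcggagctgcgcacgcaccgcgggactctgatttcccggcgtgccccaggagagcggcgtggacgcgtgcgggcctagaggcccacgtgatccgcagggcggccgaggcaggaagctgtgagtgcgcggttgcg
In FANCD2 and XRCC2 the base after the capitals completes the 8-letter word on the other strand.

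**Figure D2:**
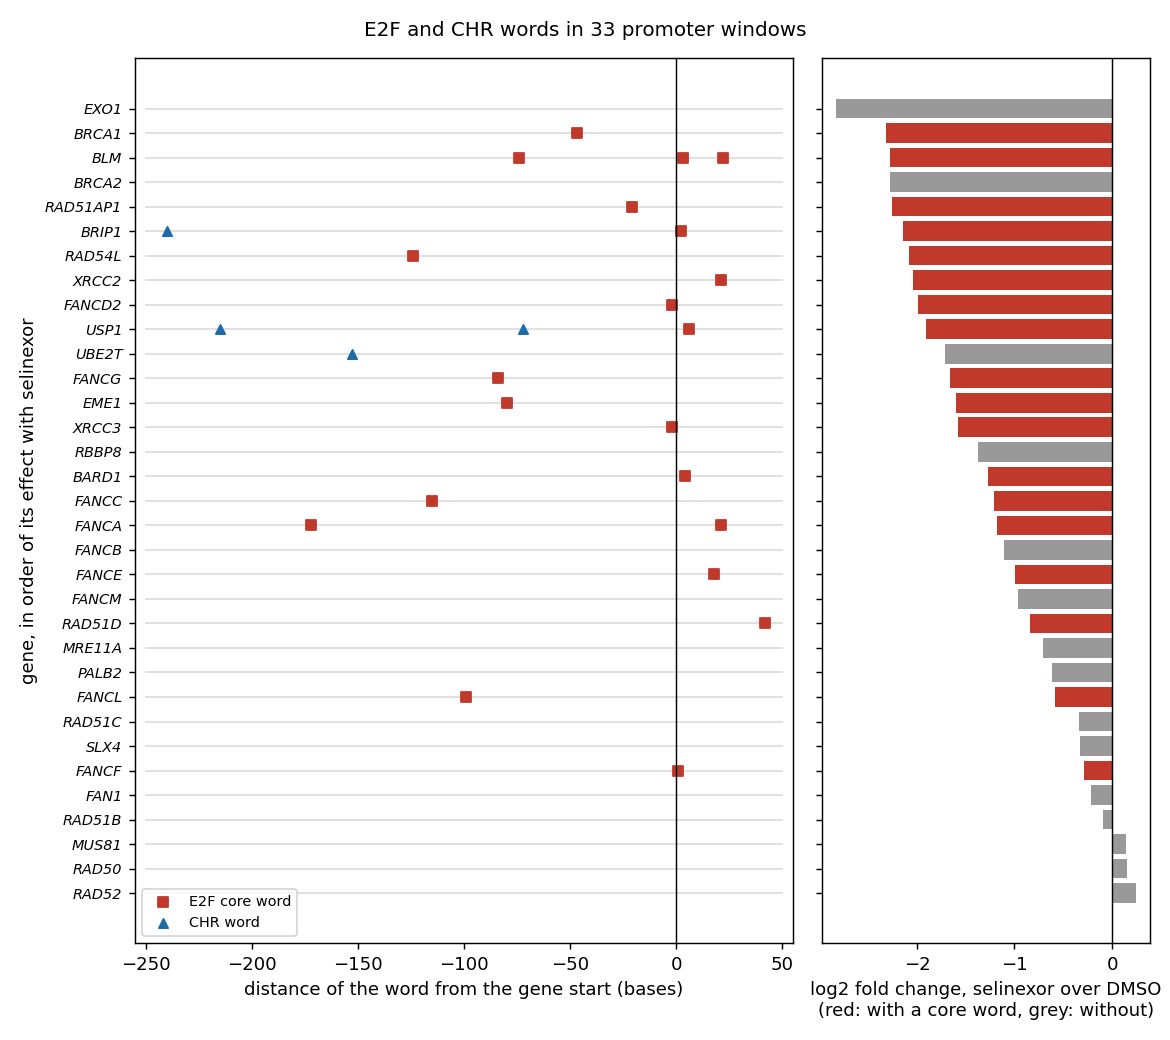
Left, distance in bases of each E2F core (squares) and CHR word (triangles) from the gene start in the 33 promoter windows; right, log2 fold change of the same gene, selinexor over DMSO, red with a core and grey without. Genes run from EXO1 (-2.82) at the top to RAD52 (0.24) at the bottom, and none of the 3 lowest rows, MUS81, RAD50 and RAD52, holds a core. EXO1 in the top row holds none either, while FANCL (-0.59) and FANCF (-0.28) hold one.

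The genes that recognise and trim the broken end fell unevenly with selinexor: 5 of 6 passed the threshold as lower, with a median log2 fold change of -1.08. EXO1 (chr1:242011269-242058451, plus strand, build hg19 as for all genes here), the exonuclease of long-range resection, had normalized read counts of 756, 923 and 863 with selinexor, against 5855, 6019 and 6090 with DMSO. Every selinexor library was far below every DMSO library, a 7.08-fold fall (a log2 change of -2.82 ± 0.09 SE, with limma's adjusted p = 4.14e-07) that was the 28th lowest of all genes tested. BLM (chr15:91260558-91358860, plus strand), a helicase that unwinds ends and dissolves recombination intermediates, had 713, 1081 and 1042 with selinexor, against 4430, 4629 and 4463 with DMSO. The groups were again far apart, with selinexor replicate 1 the lowest, and the fall was 4.84-fold (a log2 change of -2.28 ± 0.15 SE, with limma's adjusted p = 1.1e-05). RBBP8, also called CtIP, which starts resection, fell 2.59-fold. MRE11A and NBN, the nuclease and the signalling subunit of the MRN complex that binds broken ends, fell 1.63-fold and 1.73-fold. RAD50 (chr5:131891711-131980314, plus strand), the subunit of the same complex that tethers ends, had 2960, 2508 and 2643 with selinexor, against 2323, 2513 and 2435 with DMSO. Its groups overlapped, and the log2 fold change of 0.15 did not pass the threshold (limma adjusted p = 0.18).

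All 5 genes of the BRCA1 and BRCA2 complexes fell with selinexor, with a median log2 fold change of -2.15, the lowest of the 6 roles. BRCA1 (chr17:41196312-41277501, minus strand), which promotes resection and recruits its partners to the break, had 1942, 2232 and 2122 with selinexor, against 10250, 10670 and 10514 with DMSO. The selinexor libraries were close to one another and none came near the DMSO libraries, a 4.998-fold fall (a log2 change of -2.32 ± 0.08 SE, with limma's adjusted p = 4.94e-07). BRCA2 (chr13:32889611-32973806, plus strand), which prepares single-stranded DNA for strand exchange, had 497, 754 and 806 with selinexor, against 3217, 3199 and 3335 with DMSO. Selinexor replicate 1 was the lowest and the groups did not overlap, a 4.84-fold fall (a log2 change of -2.27 ± 0.17 SE, with limma's adjusted p = 1.94e-05). BRIP1, a helicase that binds BRCA1, fell 4.43-fold and BARD1, the ubiquitin ligase partner of BRCA1, 2.41-fold. PALB2 (chr16:23614488-23652632, minus strand), the bridge between BRCA1 and BRCA2, had 940, 987 and 979 with selinexor, against 1481, 1515 and 1446 with DMSO. That was the smallest fall of the role, 1.53-fold, with tight groups that did not overlap (a log2 change of -0.61 ± 0.08 SE, with limma's adjusted p = 0.000368).

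The strand exchange genes split widely with selinexor, with 7 of 9 lower and log2 fold changes between -2.26 and 0.24. RAD51AP1 (chr12:4647950-4669215, plus strand), which helps the strands to pair, had 202, 285 and 284 with selinexor, against 1191, 1262 and 1194 with DMSO. RAD54L (chr1:46713360-46744146, plus strand), a motor protein of strand exchange, had 176, 118 and 133 with selinexor, against 616, 591 and 589 with DMSO. Both were several times lower in every selinexor library, 4.78-fold and 4.24-fold on average. RAD54B, a related motor, fell 3.28-fold and XRCC3, which acts with RAD51C, 2.98-fold. XRCC2 (chr7:152341864-152373251, minus strand), which acts in a complex with RAD51B, RAD51C and RAD51D, had 415, 580 and 615 with selinexor, against 2054, 2221 and 2251 with DMSO, a 4.10-fold fall without overlap.

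The partners of XRCC2 in that complex had smaller fold changes. RAD51D (chr17:33426811-33448542, minus strand) had 113, 131 and 161 with selinexor, against 226, 247 and 248 with DMSO, a 1.79-fold fall with no overlap. RAD51C (chr17:56769934-56811704, plus strand) had 1201, 1581 and 1463 with selinexor, against 1770, 1739 and 1838 with DMSO. The selinexor libraries lay below the DMSO libraries by a small margin, and the log2 fold change of -0.34 ± 0.11 SE passed the threshold (limma adjusted p = 0.0322) but did not without DMSO replicate 1, 2 or 3 or selinexor replicate 3 (adjusted p up to 0.114) or with no intensity trend (adjusted p = 0.0654). RAD51B (chr14:68286496-69196936, plus strand), the lowest of the 36 genes in read count, had 103, 129 and 133 with selinexor, against 140, 124 and 125 with DMSO, with overlap and no call (limma adjusted p = 0.616). RAD52 (chr12:1021243-1099220, minus strand), which anneals complementary strands, had 322, 342 and 331 with selinexor, against 264, 277 and 301 with DMSO. The selinexor libraries of RAD52 all lay above the DMSO libraries, yet the log2 fold change of 0.24 ± 0.10 SE did not pass the threshold (limma adjusted p = 0.0778), and did without selinexor replicate 1 (adjusted p = 0.0248).

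All 9 genes of the Fanconi core complex and its E2 enzyme fell with selinexor, with a median log2 fold change of -1.10. UBE2T (chr1:202300785-202311109, minus strand), the ubiquitin-conjugating E2, had 884, 1511 and 1260 with selinexor, against 3764, 4071 and 3865 with DMSO. Its selinexor libraries were spread but all below the DMSO libraries, a 3.27-fold fall (a log2 change of -1.71 ± 0.17 SE, with limma's adjusted p = 0.000111). FANCG (chr9:35073832-35080014, minus strand), a scaffold subunit, had 622, 593 and 537 with selinexor, against 1754, 1999 and 1796 with DMSO, a 3.17-fold fall. FANCA (chr16:89803957-89883066, minus strand), the subunit most often mutated in Fanconi anemia, had 441, 381 and 339 with selinexor, against 880, 891 and 853 with DMSO, a 2.27-fold fall. In neither gene did the groups overlap, and replicate 1 was the highest of the selinexor libraries. FANCC and FANCB, further subunits of the complex, fell 2.31-fold and 2.15-fold, FANCE 1.99-fold and FANCM, the translocase that anchors the complex to DNA, 1.95-fold. FANCL (chr2:58386378-58468508, minus strand), the catalytic ubiquitin ligase subunit, had 487, 714 and 719 with selinexor, against 873, 1017 and 955 with DMSO. It fell 1.501-fold (limma adjusted p = 0.0144), with its call lost without DMSO replicate 2 (adjusted p = 0.0633). FANCF, an adaptor subunit, fell 1.22-fold at the edge of the threshold (limma adjusted p = 0.0494), and lost its call without DMSO replicate 1, 2 or 3 or selinexor replicate 3 (adjusted p up to 0.152). The FANCF call held in 5 of 14 alternatives, and among others was lost with no filter, equal totals, trimmed mean scaling and no intensity trend in limma (adjusted p between 0.0516 and 0.0854).

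The FANCD2 and FANCI pair and the enzyme that resets it fell together with selinexor. FANCD2 (chr3:10068098-10143615, plus strand), the subunit that the core complex ubiquitinates, had 1171, 1423 and 1297 with selinexor, against 4982, 5194 and 5193 with DMSO. USP1 (chr1:62901968-62917476, plus strand), the deubiquitinase that removes the mark, had 2586, 3338 and 3043 with selinexor, against 10891, 11526 and 11150 with DMSO. Each selinexor library was several times below each DMSO library, and the falls were 3.96-fold and 3.76-fold (limma adjusted p = 1.88e-06 and 4.04e-06). FANCI, the partner of FANCD2, fell 3.27-fold.

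Of the 4 structure-specific nuclease genes, 2 fell with selinexor, where 26.3% of all genes tested did. EME1 (chr17:48450581-48458845, plus strand), the partner subunit of MUS81, had 386, 458 and 393 with selinexor, against 1165, 1250 and 1346 with DMSO, a 3.04-fold fall without overlap. MUS81 (chr11:65624597-65635125, plus strand), the catalytic subunit that cuts branched DNA, had 884, 735 and 720 with selinexor, against 672, 751 and 683 with DMSO, with overlap and no call (limma adjusted p = 0.291). SLX4 (chr16:3631182-3661600, minus strand), the scaffold that holds several nucleases, had 950, 736 and 735 with selinexor, against 981, 1005 and 1025 with DMSO. Its fall was 1.25-fold (limma adjusted p = 0.0455), with the call lost without DMSO replicate 1, 2 or 3 or selinexor replicate 2 or 3 (adjusted p up to 0.138). It was also lost with equal totals, trimmed mean scaling and no intensity trend in limma (adjusted p = 0.162, 0.0579 and 0.0798). FAN1 (chr15:31196055-31235312, plus strand), a nuclease that binds ubiquitinated FANCD2, had 1151, 1338 and 1324 with selinexor, against 1443, 1534 and 1428 with DMSO. Its groups did not overlap, but the log2 fold change of -0.21 did not pass the threshold (limma adjusted p = 0.0863), and did without selinexor replicate 1 (adjusted p = 0.0402).

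With XPO1 siRNA the end resection genes again had 5 of 6 lower, with a median log2 fold change of -0.32. EXO1 had 4143, 4108 and 3917 with XPO1 siRNA, against 6699, 6889 and 6838 with control siRNA. It had the largest fall of the 36 genes here as well, 1.68-fold with no overlap (a log2 change of -0.75 ± 0.03 SE, with limma's adjusted p = 1.17e-09). RBBP8 had 2237, 2076 and 2110 with XPO1 siRNA, against 3101, 3036 and 3061 with control siRNA, a 1.43-fold fall without overlap. BLM fell 1.35-fold, MRE11A 1.15-fold and NBN 1.13-fold, and the last 2 lost their calls with libraries rescaled to equal totals (limma adjusted p = 0.118 and 0.0511). RAD50 had 2568, 2763 and 2693 with XPO1 siRNA, against 2492, 2595 and 2555 with control siRNA, with overlap and no call (limma adjusted p = 0.157).

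In the BRCA1 and BRCA2 complexes, 4 of 5 genes fell with XPO1 siRNA, with a median log2 fold change of -0.37. BARD1 (chr2:215590370-215674429, minus strand) had 2094, 2129 and 2256 with XPO1 siRNA, against 3062, 3178 and 2937 with control siRNA, a 1.42-fold fall that was the largest of the role. BRCA1 had 6483, 6669 and 6711 with XPO1 siRNA, against 8247, 8539 and 9074 with control siRNA, a 1.30-fold fall. BRCA2 had 1762, 1945 and 2060 with XPO1 siRNA, against 2208, 2444 and 2414 with control siRNA, a 1.23-fold fall. In all 3 genes the groups were separate but close, and BRIP1 fell 1.29-fold. PALB2 had 1332, 1343 and 1276 with XPO1 siRNA, against 1379, 1394 and 1310 with control siRNA. Its groups overlapped, with a log2 fold change of -0.047 (limma adjusted p = 0.406) that turned to 0.043 with equal totals.

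Among the 9 strand exchange genes, 4 fell and 2 rose with XPO1 siRNA, where 28.6% of all genes tested fell and 25.9% rose. RAD54L had 455, 455 and 438 with XPO1 siRNA, against 760, 725 and 747 with control siRNA, a 1.65-fold fall. RAD54B (chr8:95384188-95487338, minus strand) had 713, 747 and 821 with XPO1 siRNA, against 1170, 1249 and 1230 with control siRNA, a 1.601-fold fall. Neither motor gene had overlapping groups, and XRCC3 and RAD51AP1 fell 1.48-fold and 1.46-fold. RAD51C had 2176, 2193 and 2106 with XPO1 siRNA, against 1761, 2023 and 1882 with control siRNA. Every XPO1 siRNA library lay above every control siRNA library, a 1.14-fold rise (a log2 change of 0.19 ± 0.05 SE, with limma's adjusted p = 0.00454). RAD52 had 281, 297 and 269 with XPO1 siRNA, against 234, 231 and 262 with control siRNA, a 1.17-fold rise with a narrow gap between the groups (limma adjusted p = 0.0423). That call was lost without control siRNA replicate 1 or 2 or XPO1 siRNA replicate 1 or 2 (adjusted p up to 0.154).

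The other 3 strand exchange genes did not pass the threshold with XPO1 siRNA. XRCC2 had 1294, 1291 and 1194 with XPO1 siRNA, against 1215, 1305 and 1408 with control siRNA, with overlap and a log2 fold change of -0.054 (limma adjusted p = 0.453). RAD51D had 226, 213 and 226 with XPO1 siRNA, against 242, 217 and 244 with control siRNA, also with overlap (limma adjusted p = 0.484). Both log2 fold changes turned positive with equal totals, at 0.036 for XRCC2 and 0.013 for RAD51D. RAD51B had 112, 132 and 132 with XPO1 siRNA, against 129, 145 and 182 with control siRNA, with overlap (limma adjusted p = 0.118), and passed the threshold without control siRNA replicate 1 (adjusted p = 0.0398).

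In the Fanconi core, 8 of 9 genes fell with XPO1 siRNA, with a median log2 fold change of -0.25. FANCE (chr6:35420138-35434881, plus strand), the subunit that contacts FANCD2, had 592, 610 and 580 with XPO1 siRNA, against 942, 905 and 991 with control siRNA. Its groups were well apart, a 1.59-fold fall (a log2 change of -0.67 ± 0.06 SE, with limma's adjusted p = 2.96e-07). UBE2T had 3784, 3595 and 3597 with XPO1 siRNA, against 5007, 5777 and 5393 with control siRNA, a 1.47-fold fall without overlap. FANCA had 608, 576 and 578 with XPO1 siRNA, against 684, 665 and 747 with control siRNA, a 1.19-fold fall (limma adjusted p = 0.00358). FANCG fell 1.40-fold, and FANCB, FANCC, FANCF and FANCM between 1.10-fold and 1.20-fold. Those last 4 calls were lost with libraries rescaled to equal totals (limma adjusted p = 0.058, 0.162, 0.299 and 0.414). FANCM also lost its call without control siRNA replicate 2 or 3 or XPO1 siRNA replicate 2 or 3 (adjusted p between 0.052 and 0.0696), and FANCF without XPO1 siRNA replicate 3 (adjusted p = 0.0502). FANCL had 1173, 1123 and 1162 with XPO1 siRNA, against 1145, 1177 and 1139 with control siRNA, with overlap and a log2 fold change near 0 (limma adjusted p = 0.984) whose sign depended on the scaling.

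All 3 genes of the FANCD2 and FANCI pair and its deubiquitinase fell with XPO1 siRNA, and the 4 nuclease genes had fold sizes of at most 1.19. FANCD2 had 3925, 3855 and 3855 with XPO1 siRNA, against 5425, 5492 and 5766 with control siRNA, a 1.43-fold fall with tight groups (limma adjusted p = 4.66e-08). USP1 had 8281, 8266 and 8152 with XPO1 siRNA, against 10764, 11042 and 10851 with control siRNA, a 1.32-fold fall (limma adjusted p = 1.32e-07), and FANCI fell 1.15-fold. EME1 had 1183, 1186 and 1042 with XPO1 siRNA, against 1325, 1334 and 1403 with control siRNA, a 1.19-fold fall. FAN1 had 1383, 1353 and 1358 with XPO1 siRNA, against 1177, 1262 and 1253 with control siRNA. It rose 1.11-fold with no overlap (limma adjusted p = 0.0128), a call lost without control siRNA replicate 1 (adjusted p = 0.0527). MUS81 had 798, 848 and 858 with XPO1 siRNA, against 818, 754 and 650 with control siRNA, with overlap (limma adjusted p = 0.0587), and passed the threshold without control siRNA replicate 1 (adjusted p = 0.00984). SLX4 had 937, 954 and 914 with XPO1 siRNA, against 894, 834 and 912 with control siRNA, just without overlap and not past the threshold (limma adjusted p = 0.171).

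**Figure D3:**
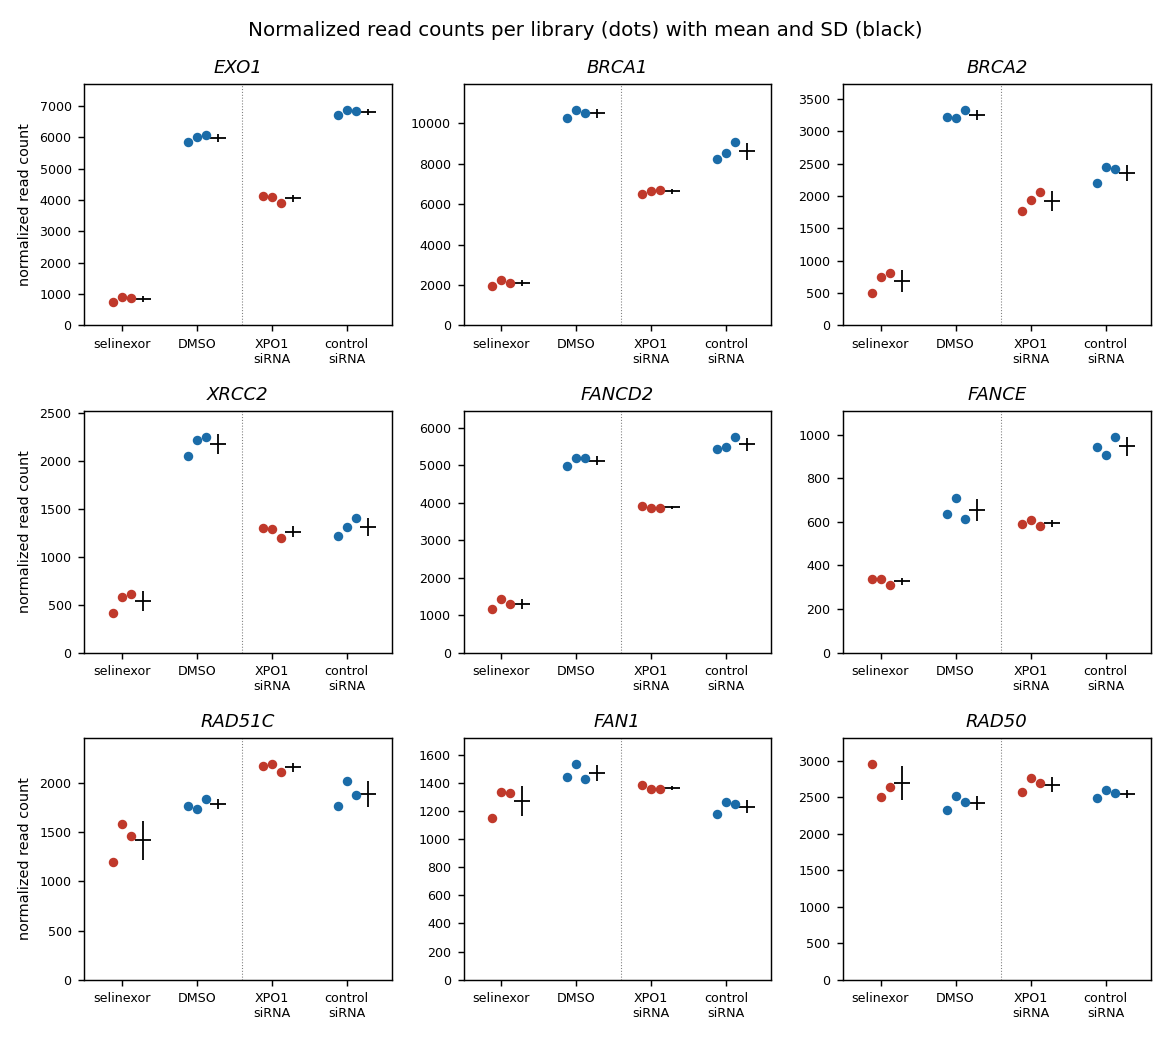
Normalized read count of 9 genes in each library (dots; y axis from 0), red for selinexor or XPO1 siRNA and blue for DMSO or control siRNA, with mean and SD in black. EXO1, BRCA1, BRCA2, XRCC2 and FANCD2 lie several times lower with selinexor, XRCC2 and RAD50 overlap between the siRNA groups, and RAD51C and FAN1 lie higher with XPO1 siRNA.

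The effects of drug and knockdown were compared directly as the log2 fold change with selinexor minus that with XPO1 siRNA, over all 12 libraries. The difference passed the threshold as lower, a more negative effect of selinexor, for 31 of the 36 genes and as higher for 0, beside 20.2% and 11.6% of all 17332 genes tested (31.8% in either direction). RAD50, RAD51B, RAD52, FANCF and MUS81 did not pass it, and at an unadjusted p under 0.05 in limma the count of higher differences was also 0. The median difference was -0.89, beside -0.068 over all genes. The arms differ in the agent, in the time before RNA was taken (24 h and 72 h) and in nucleofection, and these cannot be told apart.

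EXO1 had the largest difference (-2.08 ± 0.10 SE, limma adjusted p = 2.54e-08), followed by XRCC2 (-1.98 ± 0.17 SE, limma adjusted p = 2.74e-06) and BRCA2 (-1.98 ± 0.20 SE, limma adjusted p = 9.36e-06). For XRCC2 the log2 fold change with XPO1 siRNA was 2.65% of that with selinexor, where it was 26.5% for EXO1 and 12.9% for BRCA2. FANCE had the smallest difference of those that passed the threshold, -0.32 ± 0.11 SE (limma adjusted p = 0.0343) and a knockdown effect that was 67.5% of the selinexor effect. The FANCE difference no longer passed the threshold without DMSO replicate 1 or 2, selinexor replicate 3, control siRNA replicate 1 or 2, or any XPO1 siRNA replicate (adjusted p up to 0.0916 over the alternatives). RAD51C was called in opposite directions, and its difference of -0.54 ± 0.13 SE passed the threshold (limma adjusted p = 0.00596). FAN1 had a difference of -0.36 ± 0.10 SE (limma adjusted p = 0.013) and SLX4 one of -0.41 ± 0.13 SE (limma adjusted p = 0.0258). The SLX4 call was lost without DMSO replicate 2 or 3, selinexor replicate 3, control siRNA replicate 2, or XPO1 siRNA replicate 1 or 2 (adjusted p up to 0.0651), and that of FANCL without DMSO replicate 2 (adjusted p = 0.0551).

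Across the 36 genes the 2 log2 fold changes had a Pearson correlation of 0.756 and a Spearman correlation of 0.729, beside 0.643 and 0.607 over all 17332 genes. The points share the libraries of each arm, and genes are not independent replicates, so these describe the pattern only. By their calls, 25 genes fell with both, PALB2, RAD51D, XRCC2, FANCL and SLX4 passed the threshold as lower with selinexor only, RAD51C was lower with selinexor and higher with XPO1 siRNA, and RAD52 and FAN1 passed it as higher with XPO1 siRNA only. RAD50, RAD51B and MUS81 passed it with neither. Joint calls were not counted over all genes, of which 26.3% were lower with selinexor and 28.6% with XPO1 siRNA.

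**Figure D4:**
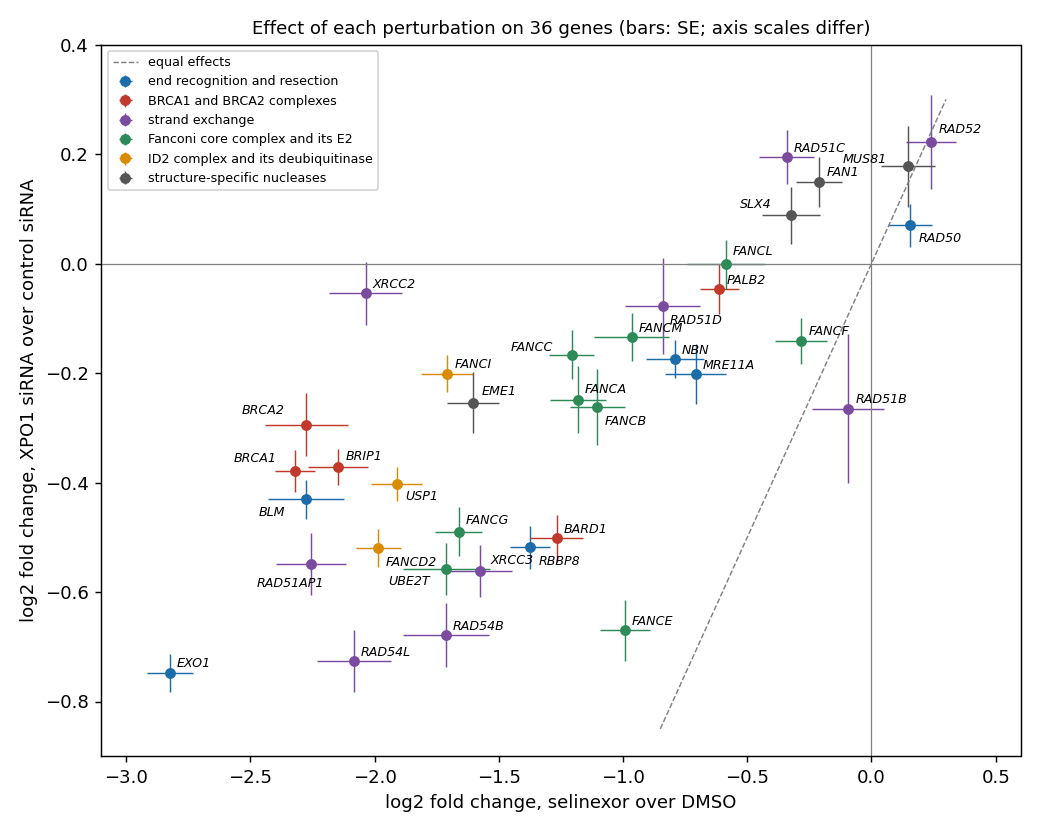
Log2 fold change of each of the 36 genes, selinexor over DMSO (x axis) and XPO1 siRNA over control siRNA (y axis, on a different scale), with SE bars, colours by role and a dashed line of equal effects. All but 3 genes (RAD50, RAD51B and RAD52) lie on the side of a lower value with selinexor, and XRCC2 stands alone near -2 on the x axis and 0 on the y axis.

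The 36 genes were set beside 48 other genes of the same pathways and beside other repair routes. Of those 48, 31 fell and 4 rose with selinexor (median log2 fold change -0.76), and 28 fell and 6 rose with XPO1 siRNA (median -0.25). PSMC3IP, an accessory factor of strand exchange, fell 4.58-fold with selinexor and 1.29-fold with XPO1 siRNA. MCM8, a helicase subunit that acts in recombination, fell 3.79-fold with selinexor and 1.29-fold with XPO1 siRNA. With XPO1 siRNA, DNA2, a nuclease of long-range resection, fell 1.48-fold and STRA13, a histone-fold partner of FANCM also named CENPX, 1.495-fold. RPA3, a subunit of the single-stranded DNA binding complex, fell 1.58-fold there. DNA2, STRA13 and RPA3 fell more with selinexor, 3.31-fold, 2.04-fold and 2.77-fold.

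A few genes of the same list moved the other way. REV3L, the catalytic subunit of the translesion polymerase zeta, had 2545, 2814 and 2998 with selinexor, against 1875, 1671 and 1761 with DMSO, and rose 1.57-fold there and 1.44-fold with XPO1 siRNA. EME2, which can replace EME1 beside MUS81, had 370, 363 and 324 with selinexor, against 191, 222 and 200 with DMSO, and rose 1.72-fold there and 1.63-fold with XPO1 siRNA. So EME1 fell and EME2 rose in both comparisons, by separate calls in each. C1orf86, which encodes a small core complex subunit, rose 1.72-fold with selinexor and was not called with XPO1 siRNA (limma adjusted p = 0.443). WDR48, the cofactor of USP1, rose 1.14-fold with XPO1 siRNA. With selinexor the log2 fold change of WDR48 was -0.20, with no call (limma adjusted p = 0.237).

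Other repair routes had smaller medians with selinexor. Of 15 end joining genes, 10 fell and 3 rose (median log2 fold change -0.57), of 7 mismatch repair genes 4 fell (median -0.52), and of 31 excision repair genes 14 fell and 5 rose (median -0.27). With XPO1 siRNA the medians were -0.18, -0.15 and -0.08. The 12 listed cell cycle genes moved with the 36 genes: all 12 fell with selinexor (median -1.88, and -1.87, -1.82 and -1.87 in the 3 libraries), and 11 fell with XPO1 siRNA (median -0.49, and -0.46, -0.49 and -0.51 in the 3 libraries), MKI67 not passing the threshold. The part of cell cycle position in the fall of the 36 genes was not tested.

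**Figure D5:**
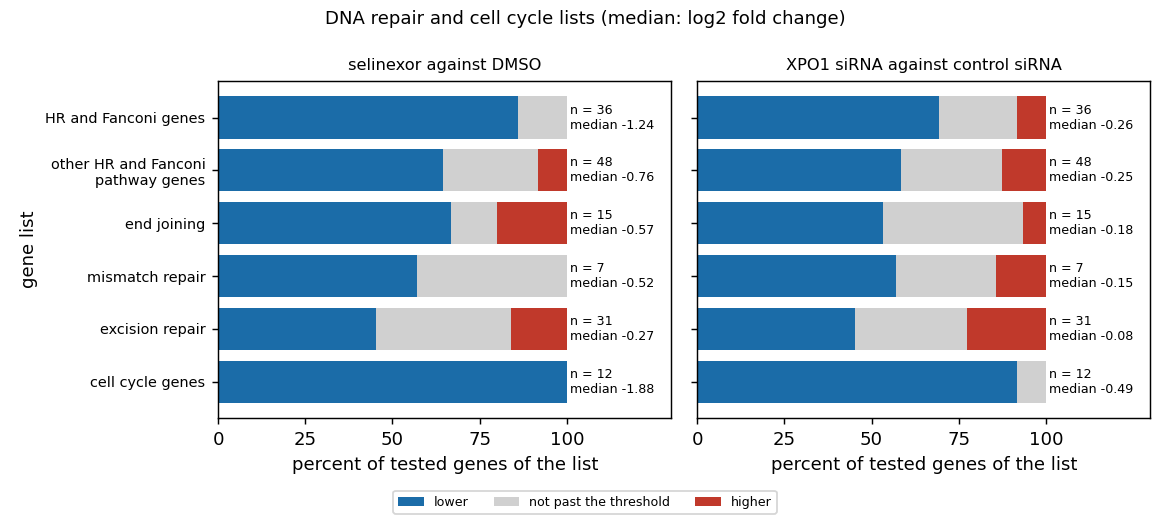
Percent of the tested genes of each list that passed the threshold as lower (blue), did not pass it (grey) or passed it as higher (red), for selinexor against DMSO (left) and XPO1 siRNA against control siRNA (right), with the number of genes and the median log2 fold change beside each bar. The 36 genes have a median of -1.24 on the left and -0.26 on the right, and the cell cycle genes -1.88 and -0.49.

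Some counts may hold reads of neighbours or copies. In the tables' hg19 coordinates, 24 of the 36 genes overlap another listed gene. On the opposite strand there are 19, such as RAD54L with LRRC41, FANCA with ZNF276 and MUS81 with CFL1. The library kit keeps strand, but its use in counting is not given in the sources used here, so reads of such a pair may not be separated. On the same strand there are 6, such as RAD54B with FSBP and FAN1 with RP11-540B6.6, and there strand cannot separate reads. For USP1 and UBE2T the only overlap is SNORA26, for RAD51B and FANCM SNORA79, and for PALB2 and SLX4 Y_RNA. Each of these small RNA symbols covers genes far apart on a chromosome, so its listed span may join separate copies. The counts of overlaps may therefore be too high. MRE11A, RBBP8, BRCA1, RAD51AP1, RAD52 and FANCD2 also have a pseudogene of their own name in RefSeq, and their values are uncertain to that extent.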

How the data were processed

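Strand-specific total RNA libraries of IMR5 cells were made, per the labels' protocols, in 4 groups of 3, grouped by their titles. Per the submitters' processing notes, the authors' tools were DESeq2, Partek and STAR 2.7.3a and their build hg19; neither annotation nor counting options are stated (not given in the sources used here). What the authors deposited is a signal per gene: read counts that they divided by each library's size factor, scaled separately for the drug and knockdown tables. Per-library depth was estimated from the steps of low values, as the step that made the most values whole reads. With it, 61.9% to 66.8% of values between 0.3 and 60 were whole reads within 0.02. Chance gives 4% for a step set beforehand, and a step picked for the largest share can exceed that. No count model was fitted. At these depths each of the 36 genes had at least 110 estimated reads on average in every group. In the table of the knockdown, 3 columns of per-sample values bore the name of an XPO1 siRNA of another number, matched no sample and were not used, so each knockdown result rests on 1 siRNA and was checked against no other, and 25 gene symbols turned into dates there were restored from coordinates.

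In each comparison the genes whose 6 values averaged 10 or more were fitted on log2(value + 1), the scale of every fold change here. The fit used limma 3.58.1 (R 4.3.3) and its eBayes step with the trend by intensity, and two-sided p-values were adjusted over all genes by Benjamini-Hochberg, with 0.05 as the threshold. The difference of the 2 effects was fitted over all 12 libraries with 4 group means. Promoter searches and figures used Python 3.11.15 with pandas 2.3.3 and matplotlib 3.10.9, and promoter windows came from RefSeq (GRCh38.p14), whose coordinates were not mixed with those of hg19. The fits were run on simulated counts holding known changes in a small part of the genes, with the same dispersion for every gene. That is simpler than these data, where 49.2% of genes were called with selinexor, so it checks the code only.

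The 36 genes, the other gene lists and the words searched were chosen with earlier results of these data known. Named in full, per role, were the 2 called genes with the largest change in each comparison, genes called against the majority, in one comparison only or in neither, and BRCA1, BRCA2, FANCA and FANCD2; of the 48 other pathway genes, the 3 with the smallest p in each direction and comparison, and XPO1 and CDKN1A as checks. The values of 1 gene so chosen are not reported here. Alternatives were pseudocounts of 0.5 and 5, no filter and a mean of 50 or more, equal totals or a trimmed mean as scaling, no intensity trend, a replicate block, each library left out, and a narrower promoter window; the 7-letter cores were added after the data were seen.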

Additional observations from a re-analysis of the deposited data

Results flagged for a closer look

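RAD51C, FAN1 and SLX4 were singled out because every selinexor library lay below every DMSO library while every XPO1 siRNA library lay above every control siRNA library, and the difference between the 2 effects passed the threshold (limma, Benjamini-Hochberg). How many of all genes meet this rule was not counted. Taken singly, groups did not overlap for 61.7% (selinexor) and 60.4% (siRNA) of all genes, and 31.8% had a difference past the threshold. For RAD51C, which acts with XRCC2 in one complex and with XRCC3 in another, the effect of selinexor minus that of XPO1 siRNA was -0.54 on the log2 scale (-0.34 and 0.19). For FAN1, the nuclease that binds ubiquitinated FANCD2, it was -0.36 (-0.21 and 0.15), and for SLX4, the nuclease scaffold, it was -0.41 (-0.32 and 0.088). Of these 6 single effects, that of selinexor on FAN1 and that of XPO1 siRNA on SLX4 did not pass the threshold on their own (adjusted p = 0.0863 and 0.171). The opposite directions held under each alternative run for RAD51C, FAN1 and SLX4. For RAD51C the log2 fold change ranged from -0.43 to -0.23 with selinexor and stayed above 0 with XPO1 siRNA. These genes were chosen for groups without overlap, so leaving out a library could not change a sign, and the stability is no separate support. With selinexor the call of RAD51C held in 9 of 14 alternatives and that of SLX4 in 5 of 14.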

How the results depend on the processing

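Over 14 alternatives each, 29 of the 36 genes kept their direction and side of the threshold with selinexor and 20 with XPO1 siRNA, as did 31 for the difference of the effects over 20 alternatives. Leaving out each library gave 27 to 32 genes lower and 0 to 1 higher with selinexor, 23 to 26 lower and 2 to 3 higher with XPO1 siRNA, and 28 to 31 lower and 0 higher for the difference. Over all genes the calls ranged from 6540 to 11113 (selinexor, the highest without replicate 1 of that group), 8428 to 9148 (XPO1 siRNA) and 4359 to 7634 (difference). With equal totals 29 of the 36 genes fell and 1 rose with selinexor (FANCF and SLX4 lost, RAD52 gained), and 19 fell and 6 rose with XPO1 siRNA. Trimmed mean scaling also gave 29 lower with selinexor (FANCF and SLX4 lost), and no intensity trend 28 (RAD51C lost too). With the 7-letter cores, the share of promoters with an E2F word was 54.5%, and with the 8-letter words it was 6.06% in the window from 100 bases before to 50 after the start. Same-numbered libraries showed little shared deviation, with correlations of 0.0088, 0.119 and -0.0417 in the drug table and -0.0311, -0.02 and -0.104 in the knockdown table. Whether they were handled as pairs cannot be read from these values. With a replicate block, 29 genes were lower with selinexor (FANCF and SLX4 lost), 25 lower and 2 higher with XPO1 siRNA (RAD52 lost), and 30 lower for the difference (FANCE lost).

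These log2 fold changes changed sign, with none past the threshold where it did: RAD51B with selinexor (-0.16 to 0.020 with libraries left out, above 0 without selinexor replicate 1), XPO1 with selinexor (-0.019 to 0.25, below 0 without selinexor replicate 2 and called higher without selinexor replicate 1), and with XPO1 siRNA and equal totals PALB2 (0.043), RAD51D (0.013), XRCC2 (0.036) and FANCL (0.089). FANCL with XPO1 siRNA was also 0.0022 with trimmed mean scaling and -0.014 to 0.017 with libraries left out, above 0 without replicate 2 of either siRNA group. With libraries left out, the difference of the effects ranged from -0.039 to 0.069 for RAD52, -0.13 to 0.059 for MUS81 and -0.0014 to 0.14 for EME2. The cause was not tested. RAD51B, with a mean of 110 estimated reads in its lowest group, was the gene of the 36 with the least depth behind it.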
